A study of Homo sapiens with 4 samples.

Results

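The nuclear genes for the subunits of oxidative phosphorylation were examined in A375 and SK-MEL-28 cells, a pair of human melanoma lines. Members were taken by gene symbol: the NDUFA, NDUFB, NDUFC, NDUFS and NDUFV families, the SDH subunits, the UQCR genes and CYC1, the COX5, COX6, COX7 and COX8 families and the ATP5 genes. Of 80 matching symbols, 2 were pseudogenes and 3 were non-coding RNAs. The other 75 were protein-coding, and 73 of them had a mean log2 intensity of at least 5 over the 4 arrays, among 13794 genes that did. These 73 comprised 32 genes of complex I, 3 of complex II, 7 of complex III, 13 of complex IV and 18 of complex V. COX6A2, at a mean log2 of 5.02, and ATP5MF, at 5.70, lay just inside this minimum. COX7A1, at 4.48, lay just outside it, and COX8C stood at 2.35. Subunit genes without a matching probe set of their own, and those encoded by mitochondrial DNA, were not analysed here.

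RNA was measured on Affymetrix expression arrays 48 h after transfection, in 4 groups of 1 array each. These were A375 cells with ZIC5 siRNA, A375 cells with negative control siRNA, SK-MEL-28 cells with ZIC5 siRNA and SK-MEL-28 cells with negative control siRNA. All 4 groups were transfected with siRNA. ZIC5 encodes a zinc finger protein of the ZIC family, and the question was how lowering it changes the transcriptome of melanoma cells. The labels do not say how many cultures stand behind an array, so every test below measures only the spread between these arrays. In RNA from whole cultures, a change in the make-up of the cells and a change of RNA per cell cannot be told apart.

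The array medians were 38.8 and 38.4 with ZIC5 siRNA in A375 and SK-MEL-28, against 39.4 and 38.8 with control siRNA, on the linear intensity scale. ZIC5 itself read 14.1 with ZIC5 siRNA against 16.8 with control siRNA in A375, and 15.5 against 21.4 in SK-MEL-28. These 4 values lay below the level minimum of 32, so they give no check of the knockdown. Melanocyte lineage markers went with the melanoma label in SK-MEL-28 and only in part in A375. Their summed intensity over 8 of 9 listed genes was 2445 with ZIC5 siRNA and 1860 with control siRNA in A375, against 43820 and 47070 in SK-MEL-28. TYRP1 read 8.1 with ZIC5 siRNA and 7.5 with control siRNA in A375, and MLANA was also below the minimum there. TYR read 26.7 with ZIC5 siRNA and 33.5 with control siRNA in A375, on either side of the minimum. Markers of other cell types were also summed. Epithelial markers reached 4610 with ZIC5 siRNA and 4613 with control siRNA in A375, against 595.3 and 580.4 in SK-MEL-28, mostly through KRT18. Fibroblast markers reached 270.4 with ZIC5 siRNA and 458.1 with control siRNA in A375, against 781.2 and 1142 in SK-MEL-28. Endothelial, leukocyte and muscle markers each summed to at most 528.2 on any array. The part of these lineage differences in the line differences below was not tested.

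Oxidative phosphorylation uses the inner mitochondrial membrane. Complex I takes electrons from NADH, complex II from succinate, and both pass them through coenzyme Q to complex III, then through cytochrome c to complex IV, where oxygen is reduced. Complexes I, III and IV pump protons, and complex V, the ATP synthase, makes ATP from the gradient. Most subunits are encoded in the nucleus and a few core subunits in mitochondrial DNA, so complexes I, III, IV and V are built from RNAs of both genomes. Melanoma lines are known to differ in how far they rely on this pathway.

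The promoters shown here are those of COX7B2, COX7B, ATP5MC2 and NDUFS1, a selection from the members described below. COX7B2 had the largest line difference of all members, and its relative COX7B had almost none. ATP5MC2 was among the members furthest below its control with ZIC5 siRNA in A375, and NDUFS1 was the furthest above. UQCRC2 and NDUFA11 lay further below than ATP5MC2 but are not shown. Each run gives the 250 bases before the first listed transcription start in RefSeq, build GRCh38.p14, read along the gene's strand. ATP5MC2 has 3 listed starts and NDUFS1 has 2. Capitals mark motif letters.
COX7B2 (chr4:46909246-46909495, minus strand): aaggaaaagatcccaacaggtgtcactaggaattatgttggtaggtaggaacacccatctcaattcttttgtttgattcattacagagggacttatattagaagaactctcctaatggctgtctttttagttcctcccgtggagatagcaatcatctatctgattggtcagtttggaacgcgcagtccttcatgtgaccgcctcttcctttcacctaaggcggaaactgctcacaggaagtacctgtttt
COX7B (chrX:77899218-77899467, plus strand): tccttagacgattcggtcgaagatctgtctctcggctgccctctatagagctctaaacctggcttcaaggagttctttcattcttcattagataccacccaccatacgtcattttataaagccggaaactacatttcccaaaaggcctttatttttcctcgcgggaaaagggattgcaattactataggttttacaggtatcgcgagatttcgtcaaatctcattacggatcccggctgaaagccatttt
ATP5MC2 (chr12:53676084-53676333, minus strand): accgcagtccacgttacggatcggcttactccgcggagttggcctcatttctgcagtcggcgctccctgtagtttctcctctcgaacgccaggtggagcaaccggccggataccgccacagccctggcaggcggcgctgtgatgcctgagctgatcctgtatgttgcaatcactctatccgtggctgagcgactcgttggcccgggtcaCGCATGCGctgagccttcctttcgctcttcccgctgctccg
NDUFS1 (chr2:206159445-206159694, minus strand): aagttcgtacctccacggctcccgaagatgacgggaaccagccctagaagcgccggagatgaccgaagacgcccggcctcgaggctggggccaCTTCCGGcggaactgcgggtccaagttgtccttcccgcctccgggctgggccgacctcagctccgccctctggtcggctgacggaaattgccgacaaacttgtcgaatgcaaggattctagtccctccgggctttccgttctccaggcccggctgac
The motifs searched were GCATGCG (NRF1), CCGGAAG (ETS, GABPA type) and AAGATGG (YY1), on both strands, for factors known as regulators of respiratory chain genes. The capitals in ATP5MC2 are NRF1 letters found on both strands, with first bases at -41 and -40 relative to the first listed start. Those in NDUFS1 are ETS letters on the opposite strand at -157. The same search found none of these motifs for COX7B2 and COX7B, nor for ATP5MC1 and NDUFV3. ATP5MC1 and NDUFV3 were lower with ZIC5 siRNA in both lines and are not shown. Of the 73 members, 63 had a promoter in the RefSeq table. Of these, 37 (58.7%) held at least 1 of the 3 motifs in the window of 300 bases, 250 before and 50 after a start, against 26.8% of 15843 protein-coding genes. NRF1 letters were in 20.6% of the members' promoters against 6.07% of all. ETS letters were in 28.6% against 16.5%, and YY1 letters in 27.0% against 7.90%. The 17 members with YY1 letters had a median siRNA log2 difference of -0.01 for A375 and 0.09 for SK-MEL-28, against 0.03 and 0.04 for the 46 without. For NRF1 letters the medians were 0.10 and 0.10 for the 13 members with them, against 0.02 and 0.04 for the 50 without. For ETS letters they were 0.09 and 0.03 for 18 members, against -0.04 and 0.09 for the 45 without. These splits were not tested. A match of letters is not evidence of binding.

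With ZIC5 siRNA the 73 members stayed close to their controls in both lines, and neither line had a member at a 2-fold difference. With each gene's second probe set in place of its first, 3 members passed 2-fold in A375: UQCRC2 at -1.10 on a bright probe set, and COX5A at -1.02 and ATP5F1E, by a larger difference, on dim ones. Each siRNA difference is the log2 intensity under ZIC5 siRNA less that under control siRNA. In A375 the members ranged over -0.72 to 0.72, with a median of 0.03 and an SD over genes of 0.30, where all 13794 genes had a median of -0.01 and an SD of 0.60. In SK-MEL-28 they ranged over -0.66 to 0.39, with a median of 0.07 and an SD of 0.21, against 0.00 and 0.39 for all genes. The count at a 2-fold difference was 0 of 73 in each line, where 8.95% of all genes reached it for A375 and 2.89% for SK-MEL-28. Among genes with a mean log2 of at least 10, as 62 of the members had, 6.4% reached it for A375 and 2.27% for SK-MEL-28. With 1 array per group there is no test within a line.

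At the smaller size of 0.5 log2, 3 members were higher with ZIC5 siRNA in A375 (15.1% of all genes) and 7 were lower (15.8% of all genes). The higher ones were NDUFS1, NDUFC1 and COX7A2L, and the lower ones UQCRC2, NDUFA11, ATP5MC2, COX7B2, NDUFV3, NDUFS7 and ATP5MC1. In SK-MEL-28 no member was higher by this size (6.18% of all genes), and COX7B2 and NDUFV3 were lower (8.37% of all genes). The COX7B2 values in SK-MEL-28 lay below the level minimum, so only NDUFV3 had both arrays above it. Signs matched between the lines for 50 of 73 members, 31 higher in both and 19 lower in both, where 64% of all genes matched. Across the 73 members the differences of the lines correlated at 0.66 (Pearson) and 0.56 (Spearman), against 0.44 and 0.41 over all genes. Members are not independent points, since they share the same 4 arrays.

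**Figure D1:**
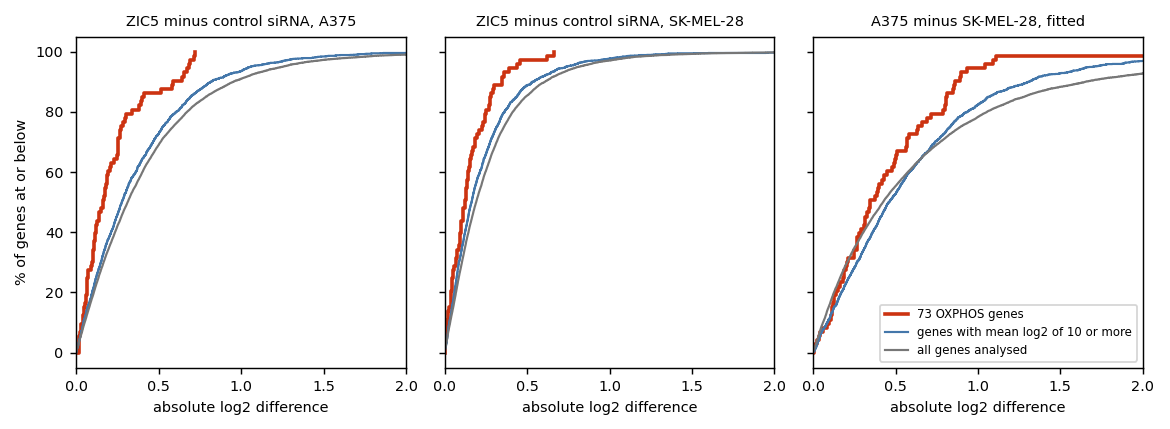
Cumulative percent of genes (vertical axis) at or below an absolute log2 difference (horizontal axis), for ZIC5 minus control siRNA in each line and for A375 minus SK-MEL-28, with the 73 oxidative phosphorylation (OXPHOS) genes in red, genes with a mean log2 of 10 or more in blue and all genes analysed in grey. The red curve reaches 100% before a log2 difference of 1 in both siRNA panels, and 1 gene, COX7B2, keeps it below 100% in the line panel.

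Over both lines, limma with the line as a covariate called 0 of the 73 members for the siRNA at an adjusted p under 0.05, and 0 of all genes (0%). The lowest adjusted p was 0.316 among the members (COX7B2) and 0.268 among all genes. At an unadjusted p under 0.05 there were 6 members, 2 higher and 4 lower (13.2% of all genes, 5.91% higher and 7.31% lower). They were NDUFS1 and COX5A on the high side and COX7B2, NDUFA11, NDUFV3 and NDUFS7 on the low side. The SE of a member's mean log2 difference was 0.09 to 0.22, with a median of 0.13. The 95% interval of that difference lay within 1 log2 unit of 0 for 70 members and reached beyond it for COX7B2, NDUFS1 and NDUFV3. The fit rests on 1 residual degree of freedom.

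Complex I, the NADH dehydrogenase, made up 32 of the 73 members. It held NDUFS1, the member furthest above its control, and 3 of the 7 members that were lower by 0.5 in A375. Complex I reached 0.5 in either direction in A375 for 15.6% of its genes, against 13.7% of all members and 30.9% of all genes. Its median log2 siRNA difference was 0.03 for A375 and 0.08 for SK-MEL-28 over 32 genes, of which 14 were higher and 9 lower in both lines. NDUFS1, the large iron-sulfur subunit of the NADH-oxidising N module, read 1121 with ZIC5 siRNA against 679.7 with control siRNA in A375, and 1787 against 1404 in SK-MEL-28. Both ZIC5 arrays were above their own controls, by 0.72 and 0.35, and the mean of 0.53 (SE 0.17) had a limma adjusted p of 0.364. Its other probe sets past the minimum were also higher in both lines. NDUFC1, an accessory subunit of the membrane arm, read 3923 with ZIC5 siRNA against 2744 with control siRNA in A375, and 2959 against 2579 in SK-MEL-28.

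The members of complex I on the low side were NDUFV3, NDUFA11 and NDUFS7. NDUFV3, a small accessory subunit of the N module, read 206.6 with ZIC5 siRNA against 324.5 with control siRNA in A375, and 324.8 against 500.0 in SK-MEL-28. The differences of -0.65 and -0.62 were of like size (mean -0.64, SE 0.17, limma adjusted p 0.337). Its second probe set gave -0.26 and -0.13. NDUFA11, a membrane-arm accessory subunit, read 1806 with ZIC5 siRNA against 2909 with control siRNA in A375, and 2852 against 3664 in SK-MEL-28 (mean -0.52, SE 0.14, limma adjusted p 0.337). NDUFS7, the Q-module subunit that carries the last iron-sulfur cluster before coenzyme Q, read 352.0 with ZIC5 siRNA against 528.0 with control siRNA in A375, and 526.7 against 712.8 in SK-MEL-28. All 3 genes were lower in both lines on their brightest probe set, and none passed the test. The second probe set of NDUFA11 was also lower in both lines, and a dim third-ranked one was higher by 0.35 and 0.15.

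By module, the 8 N-module genes had median log2 differences of 0.19 for A375 and 0.09 for SK-MEL-28. The 6 genes of the Q module, which hands electrons to coenzyme Q, had -0.11 and 0.16. NDUFA5, an accessory subunit of the Q module, went opposite ways: 1012 with ZIC5 siRNA against 1327 with control siRNA in A375 and 1711 against 1461 in SK-MEL-28. The flavin-binding subunit NDUFV1 read 1941 with ZIC5 siRNA against 2085 with control siRNA in A375, and 1188 against 1120 in SK-MEL-28. Its partner NDUFV2 read 1971 with ZIC5 siRNA against 1759.5 with control siRNA in A375, and 2003 against 1823 in SK-MEL-28. Members of 1 module differed in sign.

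Complex II, succinate dehydrogenase, was represented by SDHA, SDHC and SDHD, with a median of -0.11 for A375 and -0.24 for SK-MEL-28. SDHC, a membrane anchor, read 1174 with ZIC5 siRNA against 1271 with control siRNA in A375 and 781.9 against 1072 in SK-MEL-28. Its SK-MEL-28 difference was -0.45, and the 4 probe sets with the highest mean lay between -0.45 and -0.56 there. The dimmer ones gave 0.04, -0.19 and 0.51 in SK-MEL-28, and all SDHC probe sets were lower in A375. SDHD, the other anchor, read 1952 with ZIC5 siRNA against 2342 with control siRNA in A375, and 1029 against 1219 in SK-MEL-28. On their brightest probe set both anchors were lower in both lines. SDHA, the flavoprotein, read 757.6 with ZIC5 siRNA against 813.5 with control siRNA in A375, and 1064 against 975.3 in SK-MEL-28. The mean of SDHD was -0.25 (SE 0.13) at a limma adjusted p of 0.468, the lowest of this complex, and that of SDHC was -0.28 (SE 0.17).

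In complex III, the cytochrome bc1 complex, the median was -0.02 for A375 and 0.10 for SK-MEL-28 over 7 genes. UQCRC2, a core protein, read 1179 with ZIC5 siRNA against 1936 with control siRNA in A375, and 2232 against 2288 in SK-MEL-28. Its A375 difference of -0.72 was the lowest of all members, while SK-MEL-28 differed by -0.04. A second probe set gave -1.10 in A375, and one near the level minimum gave 1.57. CYC1, cytochrome c1, read 2070 with ZIC5 siRNA against 2096 with control siRNA in A375, and 1893 against 1589 in SK-MEL-28. UQCRB, a small subunit near the coenzyme Q site, read 6083 with ZIC5 siRNA against 5356 with control siRNA in A375, and 5058 against 4200.4 in SK-MEL-28, higher in both lines.

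Complex IV, cytochrome c oxidase, had median differences of 0.06 for A375 and 0.05 for SK-MEL-28 over 13 genes. COX7A2L, a relative of COX7A known for joining complexes III and IV into supercomplexes, read 2193 with ZIC5 siRNA against 1406 with control siRNA in A375 and 1997 against 1731 in SK-MEL-28. COX5A, a matrix-side subunit, read 5574 with ZIC5 siRNA against 4273 with control siRNA in A375, and 4916 against 4070.0 in SK-MEL-28 (mean 0.33, SE 0.10, limma adjusted p 0.361). A second, dimmer COX5A probe set went the other way, by -1.02 and -0.22. COX7B2 read 413.3 with ZIC5 siRNA against 658.8 with control siRNA in A375, and 11.5 against 18.2 in SK-MEL-28. Its log2 differences of -0.67 and -0.66 were nearly equal, but both SK-MEL-28 values lay below the level minimum.

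In complex V the median was 0.10 for A375 and 0.04 for SK-MEL-28, and 16 of its 18 members had the same sign in both lines. The proton-carrying c ring is encoded by ATP5MC1, ATP5MC2 and ATP5MC3, which give the same mature protein. ATP5MC1 read 878.2 with ZIC5 siRNA against 1316 with control siRNA in A375 and 899.6 against 1106 in SK-MEL-28. ATP5MC2 read 2558 with ZIC5 siRNA against 4112 with control siRNA in A375, and 1721 against 1887 in SK-MEL-28, so that both were lower in both lines. ATP5MC3 read 5109 with ZIC5 siRNA against 4696 with control siRNA in A375, and 8001 against 6600 in SK-MEL-28, higher in both. Its second probe set was also higher in both lines, and a dimmer third-ranked one gave -0.82 for A375 and 0.47 for SK-MEL-28. The limma adjusted p-values of these 3 genes were 0.385, 0.425 and 0.448. The 4 genes of the peripheral stalk, ATP5PB, ATP5PD, ATP5PF and ATP5PO, were higher in both lines by 0.04 to 0.19 on their brightest probe set. Second, dimmer probe sets gave -0.70 for A375 and -0.18 for SK-MEL-28 for ATP5PB, and -0.07 and 0.22 for ATP5PD. That of ATP5PO was higher in both lines. The catalytic subunit ATP5F1B read 5507 with ZIC5 siRNA against 6004 with control siRNA in A375, and 3892 against 3903 in SK-MEL-28. ATP5IF1, which inhibits ATP hydrolysis by the enzyme, read 1101 with ZIC5 siRNA against 1027 with control siRNA in A375, and 966.5 against 759.7 in SK-MEL-28.

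**Figure D2:**
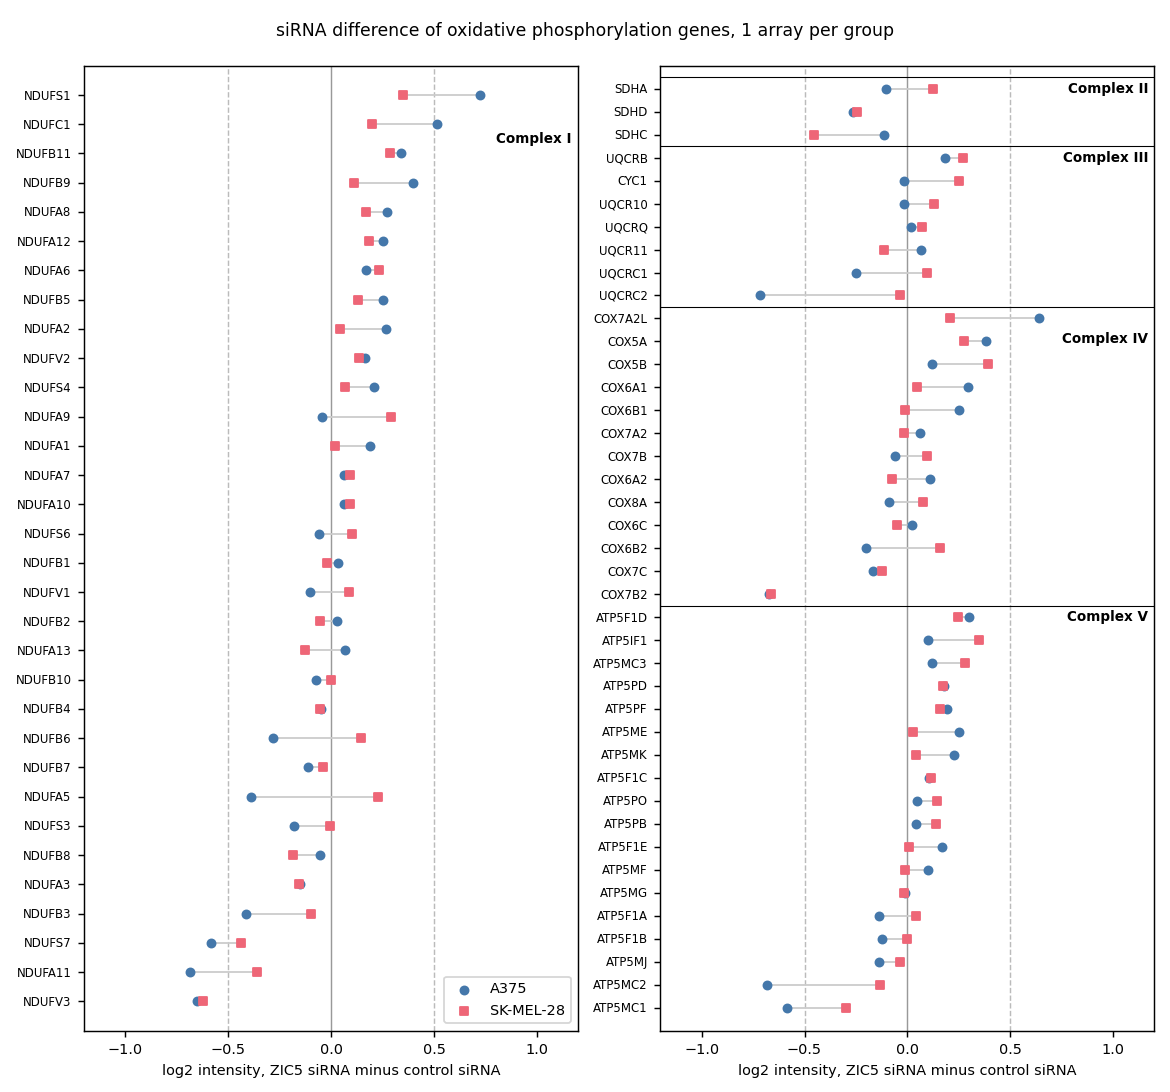
Log2 intensity with ZIC5 siRNA minus control siRNA (horizontal axis) for each of the 73 members, grouped by complex, with A375 as circles and SK-MEL-28 as squares, each point the difference of 2 arrays. Most pairs lie within 0.5 of 0 (dashed lines), and NDUFV3 and COX7B2 lie below -0.5 in both lines.

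Between the lines the median absolute log2 difference of the members was 0.35, where the siRNA gave 0.17 for A375 and 0.13 for SK-MEL-28, and all genes gave 0.42 between the lines. The limma fit over the 4 arrays called 22 of 73 members at an adjusted p under 0.05 (27.7% of all genes). Of these, 13 were higher in A375 (14.2% of all genes) and 9 were lower (13.4% of all genes). The ZIC5 and control siRNA arrays are the only replicates of each line in this fit. Its SE and p-values thus rest on how far the siRNA difference varied between the lines, not on repeated cultures. The call held in every alternative that gave a value for 11 of the 22: NDUFB3, NDUFB4, NDUFB11, SDHD, UQCR10, COX5B, COX8A, COX7B2, ATP5ME, ATP5MG and ATP5MK. Of these, NDUFB3, NDUFB11, SDHD, COX8A, COX7B2 and ATP5MK have only 1 probe set past the minimum. The alternatives on the choice of probe set could not change their values. COX7B2 passed the level minimum through A375 alone, so its call is only descriptive, as given below. The median fitted log2 difference, A375 minus SK-MEL-28, was 0.13 over the members and 0.01 over all genes. The calls were mixed in direction within a complex: 5 higher and 5 lower in complex I, 2 higher and 1 lower in complex IV, and 5 higher and 2 lower in complex V. SDHD was higher and UQCR10 lower, alone in complexes II and III. Line differences measured under ZIC5 siRNA and under control siRNA share no arrays, and correlated across the members with an r of 0.96 (n = 73; 0.91 without COX7B2, n = 72), where all genes gave 0.90. At 2-fold, 2 members were higher in A375 under ZIC5 siRNA and 3 under control siRNA, where 12% and 11% of all genes were. The members 2-fold lower in A375 numbered 2 under each siRNA, where 11.8% of all genes were under ZIC5 siRNA and 11.2% under control siRNA.

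COX7B2 had the largest of these line differences. It read 413.3 with ZIC5 siRNA and 658.8 with control siRNA in A375, against 11.5 and 18.2 in SK-MEL-28. Both A375 arrays were far above both SK-MEL-28 arrays. The SK-MEL-28 values lay below the level minimum of 32 and give only a bound: with intensities under 32 set to 32, COX7B2 was at least 16.3-fold higher in A375. It passed the level minimum through A375 alone and so had to differ between the lines, and its call is a description. COX7B, the widely expressed relative, read 4611 with ZIC5 siRNA and 4809 with control siRNA in A375, against 4798 and 4484 in SK-MEL-28. COX7B2 is otherwise known mainly from testis.

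The other called members differed by at most 2.16-fold. In complex V, ATP5MG, ATP5ME and ATP5MK, small subunits of the membrane part, were all higher in A375. ATP5MG read 6454 with ZIC5 siRNA and 6516 with control siRNA in A375, against 3129 and 3161 in SK-MEL-28 (log2 1.04, SE 0.10, limma adjusted p 0.00935). Its 3 brightest probe sets carry a suffix for cross-hybridisation. The dimmer one without it gave a line difference of 0.56 under control siRNA and -0.06 under ZIC5 siRNA. Both ATP5ME probe sets carry that suffix too. ATP5MK read 12438 with ZIC5 siRNA and 10619 with control siRNA in A375, against 6756 and 6553 in SK-MEL-28. The 5 membrane genes had a median of 0.79, and the remaining members of that group, ATP5MF and ATP5MJ, were not called. ATP5MF rests on 1 dim probe set (mean log2 5.70). The brightest ATP5MJ probe set gave line differences of -0.01 under control siRNA and -0.11 under ZIC5 siRNA. A dimmer one without the suffix gave 0.51 and 0.56. ATP5MC2 was higher in A375 (log2 0.85, SE 0.18, limma adjusted p 0.0435) and ATP5MC3 lower (-0.57, SE 0.10, limma adjusted p 0.0279). Without the intensity trend of the fit both lost their calls, with adjusted p of 0.0592 for ATP5MC2 and 0.0738 for ATP5MC3 in limma. The catalytic ATP5F1B was higher by 0.56 (SE 0.10, limma adjusted p 0.0304), but not called without the trend (limma adjusted p 0.0739). ATP5PB, the stalk's b subunit, was lower (-0.39, SE 0.09, limma adjusted p 0.0471), and 5 of the 9 alternatives ended its call.

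In complex I, NDUFB3 and NDUFA10 were lowest in A375 relative to SK-MEL-28. NDUFB3, a membrane-arm subunit, read 1092 with ZIC5 siRNA and 1454 with control siRNA in A375, against 2632 and 2815 in SK-MEL-28 (log2 -1.11, SE 0.15, limma adjusted p 0.0176). NDUFA10 read 738.1 with ZIC5 siRNA and 705.7 with control siRNA in A375, against 1590 and 1491 in SK-MEL-28 (log2 -1.09, SE 0.15, limma adjusted p 0.0171). For NDUFA10 a second probe set gave -0.17 and was not called. NDUFA6, NDUFS1 and NDUFB4 were also lower, at -0.89, -0.86 and -0.81. NDUFV1, NDUFS3, NDUFB11, NDUFB10 and NDUFB9 were higher by 0.80, 0.72, 0.69, 0.66 and 0.63. A second, dim probe set of NDUFV1 gave -0.06 and no call (limma adjusted p 0.837). The calls of NDUFS1, NDUFS3 and NDUFB9 were lost with no level minimum (limma adjusted p 0.0514, 0.0613 and 0.0510), that of NDUFA6 with the second probe set (0.0786), and that of NDUFB10 with the second probe set or without the trend (0.0842 and 0.0526).

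In the remaining complexes, SDHD read 1952 with ZIC5 siRNA and 2342 with control siRNA in A375, against 1029 and 1219 in SK-MEL-28 (log2 0.93, SE 0.13, limma adjusted p 0.0196). UQCR10, a small subunit of complex III, read 3000.2 with ZIC5 siRNA and 3032 with control siRNA in A375, against 5865 and 5370.5 in SK-MEL-28 (log2 -0.90, SE 0.11, limma adjusted p 0.0144). COX8A, a small membrane subunit of complex IV, was higher in A375 (0.81, SE 0.11, limma adjusted p 0.0187). COX5B, its zinc-binding subunit, was lower (-0.81, SE 0.12, limma adjusted p 0.0219). COX4I1, a subunit that the symbol rule leaves out, read 6516 with ZIC5 siRNA and 6044 with control siRNA in A375, against 3662 and 3806 in SK-MEL-28 (log2 0.75, limma adjusted p 0.0189).

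**Figure D3:**
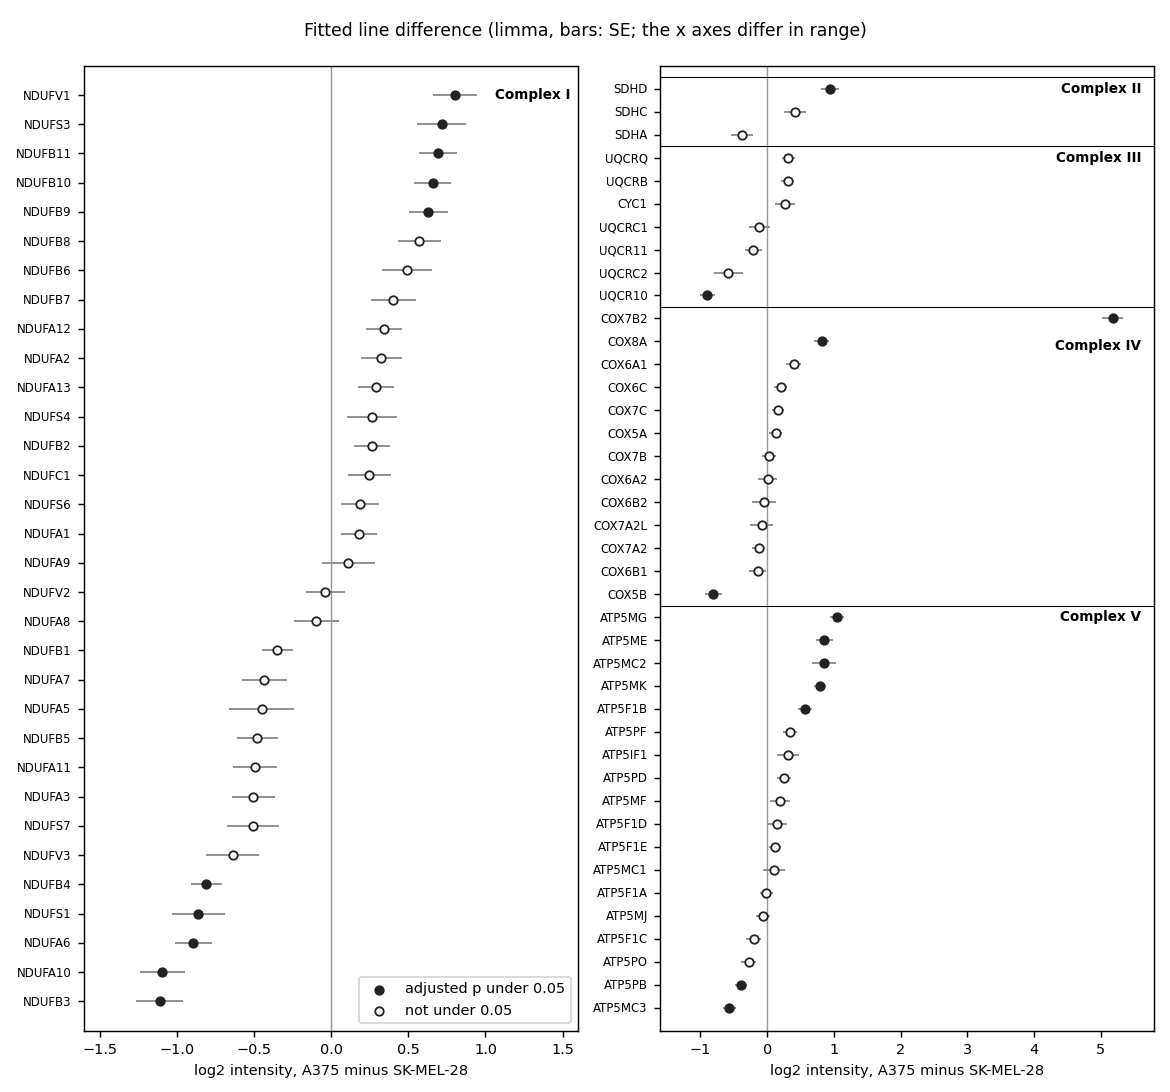
Fitted log2 difference, A375 minus SK-MEL-28 (horizontal axis, with a wider range in the right panel), for the 73 members by complex, with bars for the SE of the limma fit and filled points for an adjusted p under 0.05. COX7B2 stands apart at 5.17, a fitted value that rests on SK-MEL-28 intensities below the level minimum, and calls on both sides of 0 occur in complexes I, IV and V.

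Several subunits come as a common form and one known for heart and muscle or for testis. Intensities of different genes depend on their probes, so only arrays are compared here. COX6A2, the heart and muscle form of COX6A1, read 33.8 with ZIC5 siRNA and 31.4 with control siRNA in A375, against 31.6 and 33.3 in SK-MEL-28. COX6B2, the testis form of COX6B1, read 58.0 with ZIC5 siRNA and 66.8 with control siRNA in A375, against 67.8 and 60.8 in SK-MEL-28, and COX4I2 stayed between 48.9 and 53.7. None of these 3 was called for line or siRNA. COX7A1, the muscle form of COX7A2, read 16.4 with ZIC5 siRNA and 22.3 with control siRNA in A375, against 28.8 and 23.5 in SK-MEL-28. COX8C, the testis form of COX8A, was at 4.5 to 6.2. Both lay below the level minimum and were not tested. COX7B2 was the one tested minor form with a line call. It passed the level minimum through A375 alone, so that call does not set it apart from the other forms by a test.

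**Figure D4:**
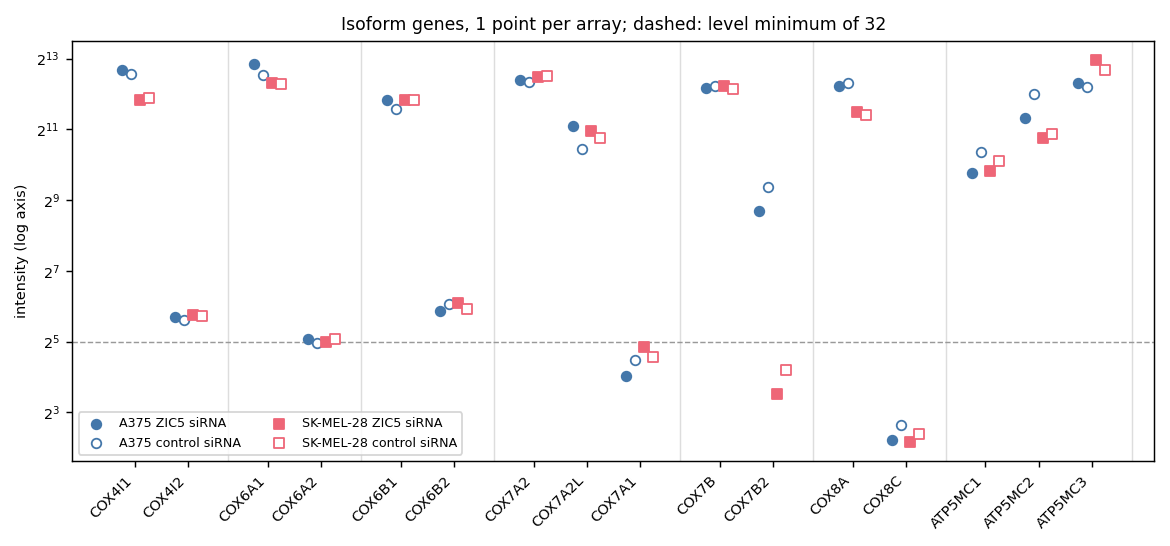
Intensity on a log axis for each of the 4 arrays, for the common and minor forms of complex IV subunits and the genes of the c ring, with A375 as circles, SK-MEL-28 as squares, ZIC5 siRNA filled and control siRNA open. The dashed line marks the level minimum of 32. COX7B2 is above it in A375 and below it in SK-MEL-28.

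Outside the subunits, the factors that build the complexes had siRNA differences of the size found for all genes: their median absolute log2 difference was 0.31 for A375, as for all genes, and 0.16 for SK-MEL-28, against 0.19 for all genes. Of 58 listed assembly factors 56 were past the level minimum, with medians of -0.08 for A375 and 0.01 for SK-MEL-28. No gene of the lists below passed limma's siRNA test, and 3 assembly factors were higher and 4 lower at an unadjusted p under 0.05, 12.5% of them against 13.2% of all genes. SURF1, needed for complex IV assembly, read 591.1 with ZIC5 siRNA against 1025 with control siRNA in A375 and 706.6 against 1309 in SK-MEL-28. COX11, which delivers copper to complex IV, read 533.3 with ZIC5 siRNA against 1240 with control siRNA in A375, and 644.2 against 992.7 in SK-MEL-28, and 2 of its 3 probe sets were lower. COA3 differed by -0.64 and -0.50, and FMC1, a complex V assembly factor, by -1.15 and -0.71. The limma adjusted p-values were 0.273 for SURF1, 0.314 for COX11, 0.316 for COA3 and 0.298 for FMC1. On the other side, NDUFAF2, a complex I assembly factor, differed by 0.81 for A375 and 0.43 for SK-MEL-28, and TTC19, a complex III factor, by 0.43 and 0.65.

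Other mitochondrial lists are set beside the medians of all genes, which were -0.01 for A375 and 0.00 for SK-MEL-28. The 23 genes of the tricarboxylic acid cycle and pyruvate entry had -0.15 for A375 and 0.01 for SK-MEL-28. In that list SUCLG2, a succinate-CoA ligase subunit, read 340.4 with ZIC5 siRNA against 1362 with control siRNA in A375 and 417.0 against 970.0 in SK-MEL-28. DLAT, of the pyruvate dehydrogenase complex, read 385.1 with ZIC5 siRNA against 823.8 with control siRNA in A375, and 327.8 against 463.3 in SK-MEL-28. Their limma adjusted p-values were 0.268 and 0.342. The 17 genes of inner membrane scaffold and cristae had medians of -0.19 and -0.06. There PHB2, a prohibitin, differed by -1.86 and -2.31, and C1QBP, a matrix protein, by -1.76 and -2.08. APOO, a component of the cristae-shaping MICOS complex, read 248.8 with ZIC5 siRNA against 774.8 with control siRNA in A375, and 265.4 against 988.4 in SK-MEL-28 (limma adjusted p 0.268). CHCHD4, which imports and oxidises small proteins of the intermembrane space, differed by -1.14 and -0.71.

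Among 10 transcriptional regulators of respiratory genes the medians were -0.29 for A375 and 0.01 for SK-MEL-28. YY1 read 1097 with ZIC5 siRNA against 1865 with control siRNA in A375 and 1095 against 1969.9 in SK-MEL-28. All 6 of its probe sets were lower in both lines, and the fitted adjusted p in limma was 0.270. HIF1A, the hypoxia factor, differed by 0.40 and 0.26. The 14 genes of mitochondrial DNA maintenance and transcription had medians of -0.04 and 0.23. TFAM, which packages mitochondrial DNA, read 1111 with ZIC5 siRNA against 1157 with control siRNA in A375, and 605.9 against 597.1 in SK-MEL-28. Its line difference, A375 minus SK-MEL-28, was 0.91 (limma adjusted p 0.0265). The 13 genes of coenzyme Q synthesis had medians of -0.36 and 0.07, and COQ7, a hydroxylase of that path, read 97.6 with ZIC5 siRNA against 202.6 with control siRNA in A375, and 127.6 against 141.8 in SK-MEL-28. The 8 membrane carriers, among them SLC25A3 and SLC25A5, had medians of 0.03 and 0.06. The 7 subunits and carriers outside the symbol rule, such as CYCS and NDUFAB1, had medians of 0.04 and -0.01.

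**Figure D5:**
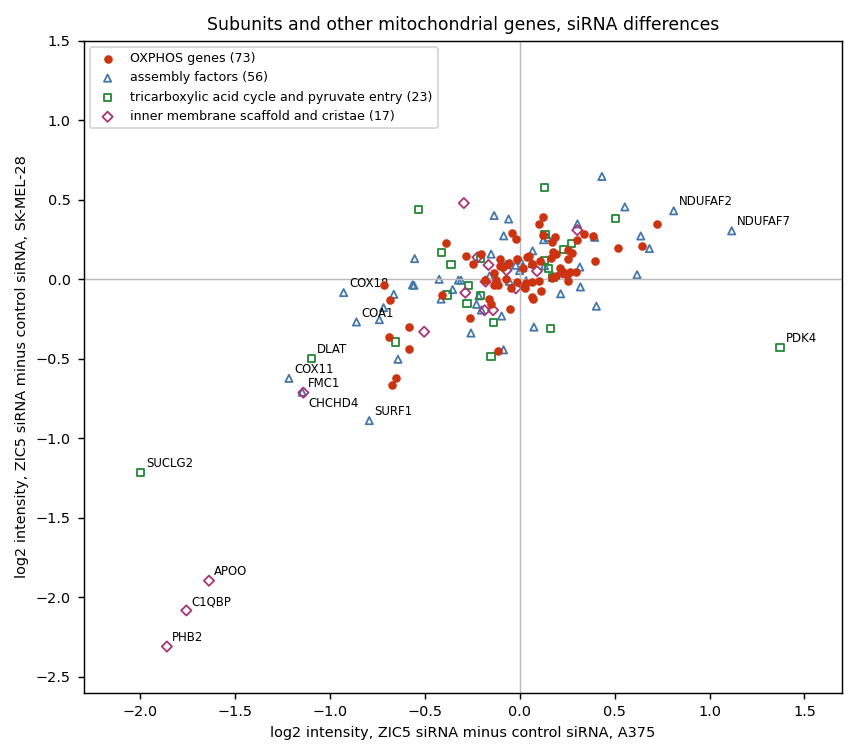
Log2 difference, ZIC5 siRNA minus control siRNA, in A375 (horizontal axis) and SK-MEL-28 (vertical axis), 1 point per gene, for the 73 OXPHOS genes (red), 56 assembly factors, 23 genes of the tricarboxylic acid cycle and pyruvate entry and 17 genes of inner membrane scaffold and cristae. The red points lie within 0.72 of 0 on both axes, and PHB2, C1QBP, APOO and SUCLG2 lie beyond -1 on both.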

How the data were processed

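Total RNA of siRNA-transfected melanoma cells was hybridised to 1-colour Affymetrix arrays, 1 array per group. The deposited values are linear intensities, 1 per probe set, which the authors made, per the submitters' processing notes, by RMA with the program Affymetrix Expression Console; its version is not given in the sources used here. RMA subtracts background, normalises the arrays to one distribution and summarises the probes, so array-wide shifts are removed and small values are compressed. The intensities ran from 2.8 to 22531, and the number of arrays limits the precision.

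Intensities were converted to log2. Of 54613 probe sets, 41091 had 1 gene symbol in the platform annotation of 2016, 1801 had several and 11721 had none. RefSeq matched 41037 of the single-gene probe sets. Each of 19775 genes was represented by its single-gene probe set of highest mean log2, and the 13794 with a mean of at least 5 were analysed. Among the members, 34 had several probe sets past this minimum and 39 had 1. Their median SD between probe sets was 0.25 for A375 and 0.09 for SK-MEL-28 for the siRNA difference, and 5 members' probe sets carry a suffix for cross-hybridisation.

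The siRNA and line effects were fitted with limma 3.58.1 in R 4.3.3 (lmFit and eBayes with an intensity trend, transfection and line as terms), with Benjamini-Hochberg adjustment over all 13794 genes and a threshold of 0.05. The fit had 1 residual degree of freedom and 2.85 prior degrees of freedom. An interaction leaves none, so no effect was tested within a line, and differences of 0.5 and 1 log2 unit were counted instead. Genes named in the text were taken from, per complex, the 3 members with the largest absolute mean siRNA difference and the 3 with the largest line difference, every isoform pair, up to 4 genes with the largest siRNA difference per list, and ZIC5; the remaining names were chosen after their values were seen. The members and lists were chosen with earlier results of these data known. Alternatives were the level minimum, a floor, the choice of probe set, normalisation and the intensity trend.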

Additional observations from a re-analysis of the deposited data

Results flagged for a closer look

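PDK4, a kinase that switches off pyruvate dehydrogenase, read 718.7 with ZIC5 siRNA against 277.9 with control siRNA in A375, and 5.3 against 7.1 in SK-MEL-28. The log2 differences were 1.37 for A375 and -0.43 for SK-MEL-28, a nominal gap of 1.80. Both SK-MEL-28 values lay far below the level minimum of 32, so neither the size nor the sign there can be relied on. NDUFA5 differed by -0.39 for A375 and 0.23 for SK-MEL-28, so that A375 lay at -0.62 relative to SK-MEL-28. Both genes were listed because the sign of the difference was not the same in the lines. Signs differed likewise for 23 of 73 members and 35.6% of all genes. UQCRC2 had a wider gap (-0.68) with the same sign in both lines. The difference between the lines was not tested for either gene, since 1 array per group leaves no replicate.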

How the results depend on the processing

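The line is a term of the limma fit, so each ZIC5 siRNA array is set against the control of its line. The labels give no replicate numbers, so no pairing beyond the line was possible. With 1 array per group none was left out in turn. Of 291 summary values recomputed, 278 stayed within 0.1 log2 or, for counts, 1.5 times. Median centring, quantile normalisation, cyclic loess, no level minimum and no intensity trend moved none of these summary values. Dropping the level minimum or the trend leaves each member's log2 values as they are, so only the fitted tests could change. The line calls of single members that did change are given below. With the mean of a gene's probe sets, the A375 siRNA median of complex II was -0.26 and 1 member was higher by 0.5 in A375, as with the second probe set. The second probe set also gave 3 members with a 2-fold siRNA difference in A375, a complex III median of 0.25 in SK-MEL-28, line medians of 0.037 for complex I and 0.17 for complex II, and a line median under ZIC5 siRNA of 0.029 over all members. The members lower by 0.5 in SK-MEL-28 numbered 1 with a level minimum of 7, with intensities under 32 set to 32, with the mean of probe sets or with the second probe set. They numbered 0 among members with a mean log2 of at least 9, an alternative chosen after seeing the data. Without COX7B2, also chosen then, 12 members were called higher in A375. The COX5A line difference turned to -0.028 with the mean of probe sets and to -0.18 with the second probe set. Of the 22 line calls, 5 were lost with no level minimum (ATP5MC2, ATP5PB, NDUFB9, NDUFS1, NDUFS3), 4 with the mean of probe sets (ATP5MC3, ATP5PB, NDUFA10, NDUFV1), 5 with the second probe set (ATP5PB, NDUFA6, NDUFA10, NDUFB10, NDUFV1), 6 without the intensity trend (ATP5F1B, ATP5MC2, ATP5MC3, ATP5PB, NDUFB9, NDUFB10) and 1 with quantile normalisation (ATP5PB). NDUFV1 turned to -0.059 with the second probe set. The causes of these changes were not tested. Values near the low end, as of COX7B2 in SK-MEL-28, carry no reliable size.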

Other observations

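The non-coding RNAs matched by symbol stayed near their controls. NDUFV1-DT, a transcript divergent to NDUFV1, read 135.8 with ZIC5 siRNA against 150.1 with control siRNA in A375 and 134.2 against 146.0 in SK-MEL-28. NDUFB2-AS1, antisense to NDUFB2, read 77.3 with ZIC5 siRNA against 70.9 with control siRNA in A375, and 70.7 against 59.2 in SK-MEL-28. The pseudogene ATP5MC2P1 read 77.1 with ZIC5 siRNA against 101.2 with control siRNA in A375, and 67.1 against 63.6 in SK-MEL-28. None was called for siRNA or line. MDH2, the malate dehydrogenase of the matrix, read 7502 with ZIC5 siRNA and 6648 with control siRNA in A375, against 2646 and 2626 in SK-MEL-28, a log2 line difference of 1.42 (limma adjusted p 0.00675). TWNK, the mitochondrial DNA helicase, read 720.9 with ZIC5 siRNA and 473.5 with control siRNA in A375, against 205.4 and 171.8 in SK-MEL-28, a log2 line difference of 1.64 (limma adjusted p 0.0139).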
